A study of Homo sapiens with 39 samples.

Results

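Transcripts of the MYC network and of genes known as drivers of neuroblastoma were followed in 2 human cell lines in which the ubiquitin ligase TRIM37 was lowered or raised. The 9 genes, named one by one with no measured value in the rule, were MYCN, MYC, MAX, MXD4, ALK, LIN28B, ODC1, SALL4 and ATRX, and all 9 were among the 23710 gene symbols of each table. Of the 39 RNA sequencing libraries in 9 groups, 9 came from an hTERT-RPE1 TRIM37 knockout and 9 from wild type RPE1, a retinal pigment epithelial line immortalised with telomerase and not transformed. CHP-134, a neuroblastoma line, gave 3 libraries of each of 2 mutant clones, clone 2 and clone 1, which the labels call a partial TRIM37 knockout, and 3 of its wild type. RPE1 clones with a TetOn-inducible TRIM37, clone 5 and clone 4, gave 3 libraries each after doxycycline (1 µM for 24 h) and 3 each without it. None of the groups analysed here was doxycycline-treated without the transgene, each CHP-134 mutant and each TetOn line is 1 clone, and the labels do not say whether replicates were separate cultures, so the p-values measure only the spread between these libraries. The titles number the 9 wild type RPE1 libraries as 3 sets of 3 and the 9 knockout libraries singly, and if the sets are repeats of 3 samples, the q values of the knockout rest on fewer independent samples than 9.

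The authors' deposited tables list for each gene its mean count over both groups, a log2 fold change, the standard error (SE) of that change and a q value (a p-value adjusted over genes). They hold no value per library, so no spread between libraries or overlap of groups can be given. In such bulk samples fewer cells of a type and less RNA per cell cannot be told apart. The submitters' processing notes name DESeq2, and a gene is called here at a q under 0.05. Genes with a Status of Low, at a mean count of at most 10, and of Outlier carry no usable q, and the rest are called measured. The mean counts of a table summed to 2.36e+07 to 3.66e+07. TRIM37, whose sign was used to set the direction of each table, had a log2 fold change of -1.95 in the RPE1 knockout, -1.75 and -1.66 in CHP-134 clone 2 and clone 1, and 2.64 and 3.19 in TetOn clone 5 and clone 4, as listed in the authors' deposited tables. Of 16 noradrenergic neuroblastoma markers, 8 were listed at 0 in the RPE1 knockout table, and none in either CHP-134 table, where the catecholamine enzymes DBH and TH stayed at or below a mean count of 9.18. Of 14 retinal pigment epithelium markers, 7 were measured in the RPE1 knockout table and 7 were Low. The mean counts of the regulators MITF and OTX2 were 2140 and 874, and those of the keratins KRT8 and KRT18 were 20500 and 25800, while the pigment and visual cycle genes TYR and RPE65 and the carrier gene TTR stood at 0, 0.173 and 0.

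MYC proteins are transcription factors that bind DNA as a pair with MAX and raise genes of growth and biosynthesis. MXD proteins pair with the same MAX and repress such genes, so the balance of partners sets the output. Many neuroblastomas carry extra copies of MYCN, some carry active ALK, a receptor tyrosine kinase, and others have lost ATRX, a chromatin remodeller. LIN28B is an RNA-binding protein that blocks the maturation of let-7 miRNAs, ODC1 is the first enzyme of polyamine synthesis and a textbook MYC target, and SALL4 is a zinc finger factor of stem cells.

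Among members with a promoter window, the sequences below show which carry the motif that MYC and MAX bind. The let-7 matches show which carry a full match to the seed of the miRNAs that LIN28B blocks. Binding was not analysed here. MYC and MAX recognise the E-box CACGTG, a palindrome, and E2F factors recognise TTTCGCGC and TTTGGCGC. RefSeq promoter windows on GRCh38.p14, 250 bases before to 50 after a start, existed for 6 of the 9 members in 10 windows. MYC, SALL4 and ATRX had no window, so their promoters were not searched. CACGTG, read on both strands, is found in 7.26% of all 35116 windows, and either E2F form in 1.15%. The 250 bases before the MYCN start at chr2:15940300-15940549 (plus strand) hold both E2F forms, on opposite strands and overlapping each other, and no E-box. Capitals mark the E2F forms in MYCN and the E-box in 1 window each of ODC1 (chr2:10448024-10448053, minus strand), ALK (chr2:29223923-29223952, minus strand) and MXD4 (chr4:2262330-2262359, minus strand). A LIN28B window also holds 1 E-box and the same ODC1 window a further one, which are not printed, and the windows of MYCN and MAX hold none.
MYCN: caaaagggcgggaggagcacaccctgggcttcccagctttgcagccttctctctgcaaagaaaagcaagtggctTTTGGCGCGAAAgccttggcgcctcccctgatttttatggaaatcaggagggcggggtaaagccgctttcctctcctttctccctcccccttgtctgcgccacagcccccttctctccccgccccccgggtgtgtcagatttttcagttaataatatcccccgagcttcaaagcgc
ODC1: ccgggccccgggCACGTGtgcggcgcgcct
ALK: ccctccctcgttCACGTGgggttatacttg
MXD4: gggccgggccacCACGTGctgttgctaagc

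Members of the let-7 family share the seed GAGGUAG, bases 2 to 8, in all 9 mature let-7 and miR-98 sequences of RefSeq, of which 2 are shown because LIN28B acts on this family. Capitals mark the seed in the miRNAs and its match CTACCTC in the 3′ UTRs of GENCODE v29 transcripts.
let-7a: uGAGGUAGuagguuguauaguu
miR-98: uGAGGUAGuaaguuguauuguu
LIN28B (base 44 of the 3′ UTR): tacccggttgcaaagtCTACCTCa
LIN28B (base 2653 of the 3′ UTR): tgtttacagcaaaaggCTACCTCa
SALL4 (base 1335 of the 3′ UTR): gaaagctttaatttatCTACCTCa
LIN28B held 4 matches in its 4549 bases, and 0.233% of 1287 3′ UTRs of like length held at least as many. SALL4 held 1 match in 1934 bases, and 12.5% of 2476 3′ UTRs of like length held at least 1. In the 1 transcript searched for each gene, CTACCTC was not in the 3′ UTR of MYCN, MAX, MXD4, ALK, ODC1 or ATRX. Other forms of a let-7 site were not searched, so these genes cannot be said to lack one. Mature miRNAs were not analysed here.

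The 2 lines transcribed different MYC genes, MYCN in CHP-134 and MYC in RPE1. Since the groups of a table are of equal size, the mean count and the log2 fold change give an implied level of each group, with no test. Changes of low genes may be understated, and their implied levels would then lie too close together. Levels are given as normalised counts, scaled so that the mean counts of a table sum to 1000000. The wild type CHP-134 levels implied by its 2 tables differed by at most 0.1 on the log2 scale in 99.7% of 10857 genes with a mean count over 100. MYCN stood at 1518, 1919 and 1511 normalised counts in CHP-134 clone 2, clone 1 and wild type. Its mean count was 0.18 in the RPE1 knockout table and 0 in both TetOn tables. MYC went the other way, at 0.462, 0.798 and 0.597 normalised counts in clone 2, clone 1 and wild type CHP-134, and at 100 and 102 normalised counts in knockout and wild type RPE1. TetOn clone 5 had 91.7 normalised counts of MYC with doxycycline and 95.6 without, and TetOn clone 4 had 102 with it and 102 without.

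Levels set across tables rest on separate normalizations. Over 9663 genes with a mean count above 100, the median gene was 0.24 higher on the log2 scale in wild type CHP-134 than in wild type RPE1. Relative to that median gene, MYC was lower in CHP-134 by 7.65 on the log2 scale. ODC1 was 0.89 higher, at 792 normalised counts in CHP-134 and 363 in RPE1. MAX, at 49.7 and 50.7 normalised counts in wild type CHP-134 and RPE1, was lower by 0.27 relative to the median gene, and MXD4, at 35.1 and 51.1, was lower by 0.78. ATRX had 134 and 113 normalised counts and differed from the median gene by 0.0049. ALK, LIN28B and SALL4, like MYCN, passed the low limit in the CHP-134 tables and in none of the RPE1 tables. In wild type CHP-134 their levels were 72.5, 126 and 5.60 normalised counts, while their mean counts in the 3 RPE1 tables were at most 0.799 for ALK, 0.847 for LIN28B and 1.28 for SALL4.

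**Figure D1:**
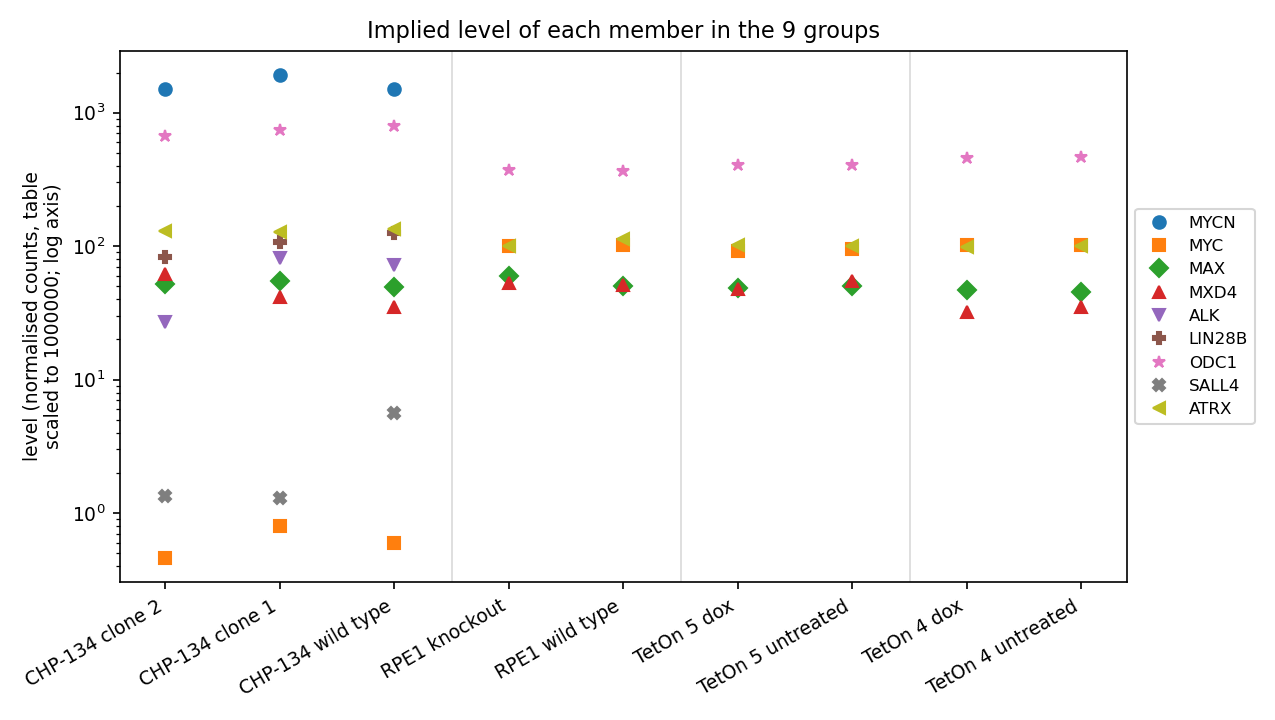
Level of each of the 9 genes in the 9 groups, in normalised counts (each table scaled to 1000000) on a log axis; genes with the Status Low have no point. MYCN lies between 1510 and 1919 in the CHP-134 groups and has no point in RPE1, while MYC lies near 100 in each RPE1 group and below 1 in CHP-134.

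Per kilobase of annotated exon, available for 92.3% of genes above the limit in the CHP-134 tables, MYCN ranked 19 of 12465 genes in the clone 2 table and 15 of 12426 in the clone 1 table. ODC1 ranked 71 and 67 in those tables, and 248 of 12253 in the RPE1 knockout table. On the same per-length scale MYC ranked 1188 in the RPE1 knockout table and 11811 in the clone 2 table. Of the remaining members in the clone 2 table, LIN28B at rank 2652 and MAX at 3833 lay above the middle of the distribution. MXD4 at 5522, ATRX at 5538 and ALK at 5581 lay near its middle, and SALL4 near its foot at 10593. These places depend on the annotated length, which is 19266 bases for ATRX. By mean count alone ATRX ranked 1711, ALK 4619, MXD4 4725 and SALL4 10928 in that table.

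The genes next to MYCN on 2p24 were set beside it in wild type cells, as the region is often amplified with it in this cancer. DDX1, an RNA helicase gene upstream of MYCN, had 55276 normalised counts in CHP-134 and 173 in RPE1. It had the highest mean count of any gene in both CHP-134 tables, with 5.10% and 5.31% of all counts. NBAS, one gene further upstream, had 576 normalised counts in CHP-134 and 67.9 in RPE1. FAM49A, on the other side of MYCN, stood at 1.08 normalised counts in CHP-134 and 20.9 in RPE1. FAM84A, upstream of NBAS, had 14.3 in CHP-134 and 0.109 in RPE1. Further out, TRIB2 had 93.5 in CHP-134 and 10.7 in RPE1, GEN1 had 80.8 and 39.8, and SMC6 had 95.8 and 73.9. Relative to the median gene, SMC6 was 0.14 higher in CHP-134 on the log2 scale. LPIN1, at 87.3 and 117, and KCNS3, at 7.42 and 18.4, were lower in CHP-134 than in RPE1. MYCNOS, which is antisense to MYCN and overlaps it, had 39.9 normalised counts in wild type CHP-134 and was listed at 0 in the RPE1 knockout table. No source used here says whether counting used the strand, so reads of the pair cannot be told apart. Copy number was not analysed here, and its part in these levels was not tested.

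**Figure D2:**
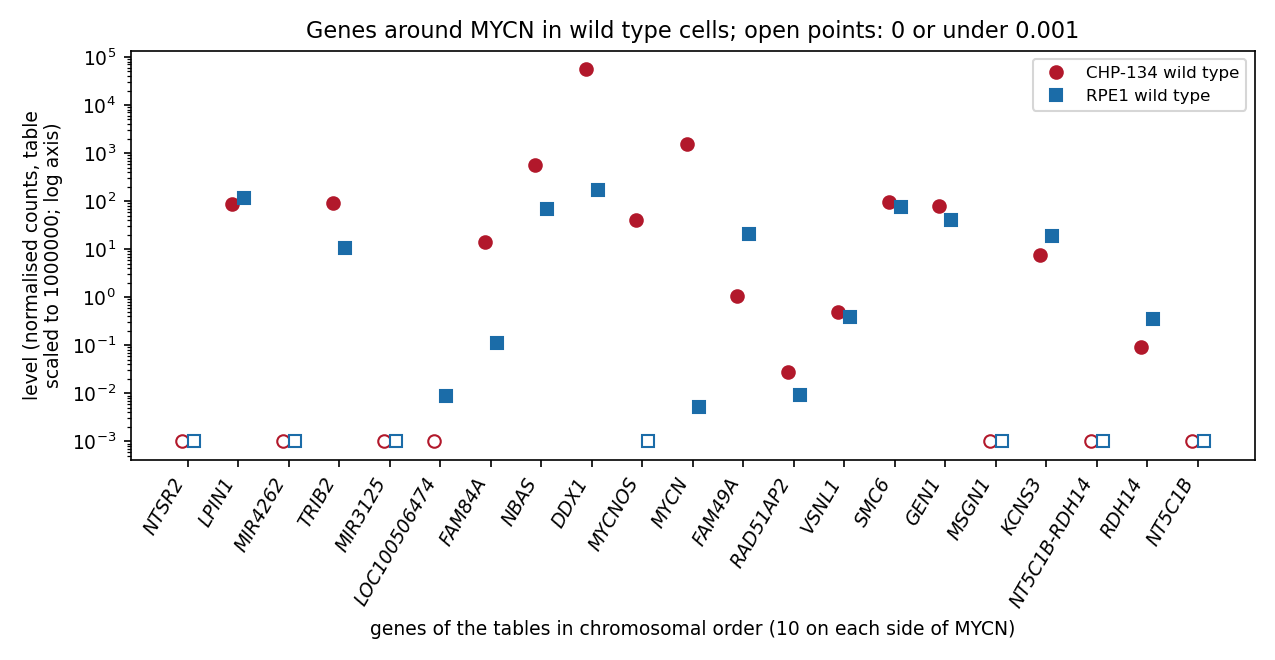
Levels in wild type CHP-134 (circles) and wild type RPE1 (squares) of MYCN and the 10 gene symbols on each side of it, in chromosomal order, in normalised counts on a log axis. From FAM84A to MYCN the CHP-134 points lie above the RPE1 points, with DDX1 at 55276 and 173, and FAM49A is the other way round.

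After loss of TRIM37 in RPE1, MAX rose and ATRX fell, and MYC, MXD4 and ODC1 were not called. These were 2 of the 5 members measured there, against 53.6% of all genes measured. In CHP-134 clone 2, LIN28B, ODC1 and SALL4 fell, 3 of 7 measured members against 46.2% of all measured genes. In clone 1, MYCN rose and LIN28B and SALL4 fell, 3 of 7 against 18.7%. With doxycycline, MXD4 was called lower in TetOn clone 5, 1 of 5 measured members against 2.97% of all genes. In TetOn clone 4, 0 of 5 were called against 1.95%, also 0 at an unadjusted p under 0.05 with the normal test on the DESeq2 estimates. The shares were therefore near or below the background in the knockout and clone 2, and the counts are too small to set the members apart elsewhere. For the pathway lists below, the share of all measured genes that rose and fell was 26.6% and 26.9% in the knockout, 22% and 24.2% in clone 2, 9.6% and 9.07% in clone 1, 0.795% and 2.17% in TetOn clone 5, and 0.716% and 1.23% in TetOn clone 4. The median log2 fold change over all measured genes lay between -0.0124 and 0.00203 in the 5 tables.

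**Figure D3:**
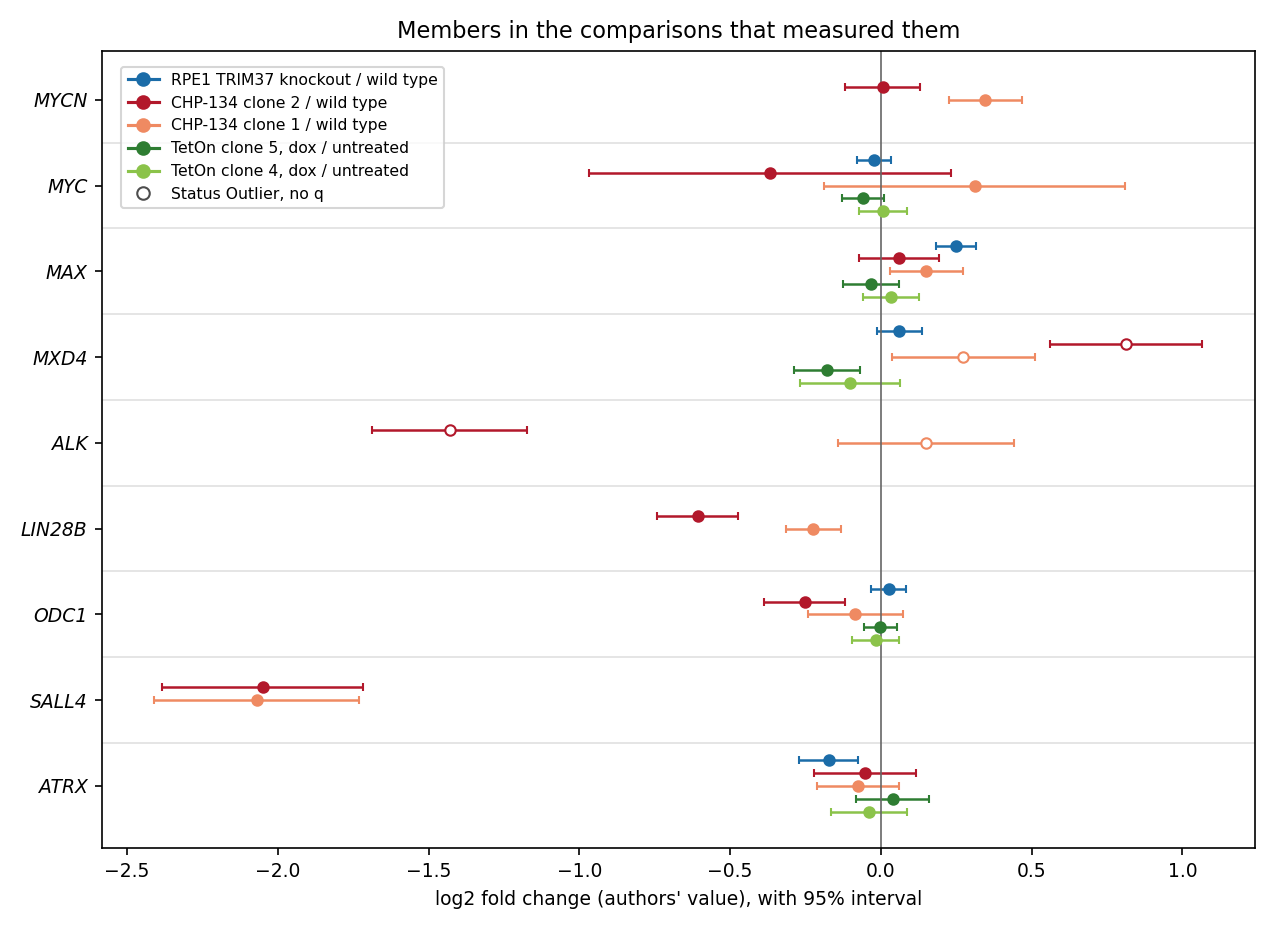
The authors' log2 fold change of each member with its 95% interval in every comparison where it was not Low; open points have the Status Outlier and no usable q. SALL4 lies at -2.05 and -2.07 in the 2 CHP-134 clones, while ALK lies at -1.43 in clone 2 and 0.15 in clone 1.

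MYCN differed between the CHP-134 clones. Its log2 fold change was 0.00605 (SE 0.0635, q = 0.947) in clone 2 and 0.35 (SE 0.062, q = 1.01e-06) in clone 1, as listed in the authors' deposited tables. Clone 2 minus clone 1 was -0.34 on the log2 scale, with a 95% interval of -0.51 to -0.17 and an adjusted p of 0.00127. This test divides the difference of the 2 fold changes by the root of their summed squared SEs, with Benjamini-Hochberg adjustment over all 12579 genes measured in both tables. Both clones are set against the same wild type libraries, which in that respect alone makes the test conservative. Of all genes, 20.5% passed it, and 2 of the 7 members measured in both clones, MYCN and LIN28B. Neither MYCN nor LIN28B passed once z values were divided by their central spread over genes. MYCNOS had a log2 fold change of -0.17 (q = 0.075) in clone 2 and 0.25 (q = 0.00156) in clone 1, as listed in the authors' deposited tables, with the overlap above. DDX1 fell in both clones, by 0.24 (q = 1.35e-05) in clone 2 and by 0.12 (q = 0.0317) in clone 1, in the authors' deposited tables, and clone 2 minus clone 1 was -0.12 with an adjusted p of 0.212.

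MYC showed no called change. In RPE1 its log2 fold change was -0.0219 (SE 0.0287, q = 0.546) on knockout, -0.0593 (SE 0.0351, q = 0.603) with doxycycline in TetOn clone 5 and 0.00536 (SE 0.0406, q = 0.993) in clone 4, as listed in the authors' deposited tables. The 95% intervals of these 3 values lay between -0.13 and 0.085. In CHP-134, at mean counts of 16.3 and 20.9, it was -0.37 (SE 0.306, q = 0.329) in clone 2 and 0.31 (SE 0.255, q = 0.439) in clone 1, as listed in the authors' deposited tables. The clones' intervals there ran from -0.97 to 0.81, and the difference between the clones had an adjusted p of 0.242.

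MAX, the shared partner, had 60.2 and 50.7 normalised counts in knockout and wild type RPE1. Its log2 fold change of 0.25 (SE 0.0345, q = 3.02e-12) was called in the authors' deposited table. It was 0.0597 (SE 0.0683, q = 0.495) in CHP-134 clone 2 and 0.15 (SE 0.0625, q = 0.0748) in clone 1, as listed in the authors' deposited tables, and -0.0327 and 0.033 in TetOn clone 5 and clone 4. The knockout exceeded clone 2 by 0.19 (interval 0.039 to 0.34, adjusted p = 0.0309), where 46.5% of all genes differed, and exceeded clone 1 by 0.098 (interval -0.042 to 0.24, adjusted p = 0.302).

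MXD4, a MAX partner that represses transcription, had 61.7 and 35.1 normalised counts in clone 2 and wild type CHP-134, and 41.9 and 34.7 in clone 1 and wild type. Its log2 fold changes were 0.81 (SE 0.129) in clone 2 and 0.27 (SE 0.121) in clone 1, as listed in the authors' deposited tables, both with the Status Outlier and so with no call. With such genes kept, 5 members passed a recomputed adjusted p under 0.05 in clone 2, MXD4 and ALK with the 3 above, against 35.5% of all genes. In TetOn clone 5 it fell by 0.18 (SE 0.0559, q = 0.047) in the authors' deposited table, at 48.1 normalised counts with doxycycline and 54.4 without. With genes set aside by Status kept and the adjusted p recomputed, that call was lost (adjusted p = 0.0624, where 2.01% of genes passed). Clone 4 had -0.10 (SE 0.0841, q = 0.796) and the RPE1 knockout 0.0608 (SE 0.0382, q = 0.173) in the authors' deposited tables. TetOn clone 5 minus clone 4 was -0.077 with an adjusted p of 1, and 0 of 5 members differed between these clones by that normal test, 0 also at an unadjusted p under 0.05, where 0.221% of all genes did.

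Several other partners of the network rose in clone 2. Of 16 measured genes of a list of partners and cofactors, 8 rose, with a list median of 0.13, and 0 were called once z values were divided by their central spread over genes. MXD1 (0.47, q = 0.000125), EP400 (0.36, q = 0.00136), MNT (0.31, q = 0.00101) and MYCL1 (0.26, q = 0.0412) changed most in the authors' deposited table. MXD1 and MNT are repressors that pair with MAX, EP400 is a cofactor of MYC, and MYCL1 is the L-MYC gene. Clone 1 had 2 of 15 called, both up, MNT (0.33, q = 0.00127) and ZBTB17 (0.29, q = 0.0176) in the authors' deposited table. In the RPE1 knockout 4 rose and 3 fell of 13, and MGA (-0.58, q = 1.3e-16), MXD3 (-0.27, q = 0.000154) and MXI1 (-0.20, q = 0.00011), all partners of MAX, fell in the authors' deposited table. MLXIP, which pairs with the MAX relative MLX and lies on chromosome 12, rose there by 0.48 (q = 4.34e-14) in the authors' deposited table.

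Genes for the turnover of MYC proteins changed in small steps. USP28, a deubiquitinase that stabilises MYC, fell in all 3 comparisons with less TRIM37, by 0.25 in the RPE1 knockout, 0.30 in clone 2 and 0.23 in clone 1, as listed in the authors' deposited tables. AURKA, a kinase that protects the MYCN protein, rose by 0.21 (q = 2.11e-09) in the RPE1 knockout in the authors' deposited table. Of 12 measured genes 3 rose and 4 fell in clone 2, or 6 and 4 once each chromosome's median was removed, and 4 fell in clone 1, among them SKP2 (-0.24, q = 1.2e-10) in the authors' deposited table. In the RPE1 knockout 4 rose and 3 fell.

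Genes that MYC activates in many cells, mostly of ribosome and nucleotide synthesis, were fewer up than down in CHP-134 clone 2. Of 42 measured, 3 rose and 18 fell, with a list median of -0.12, or 5 and 8 once chromosome medians were removed, and 0 and 1 once z values were divided by their central spread over genes. MCM4 (-0.66, q = 8.11e-27), TFRC (-0.48, q = 9.74e-18), HSPD1 (-0.32, q = 2.42e-05) and NPM1 (-0.29, q = 0.00187) fell most in the authors' deposited table. In clone 1, where MYCN rose, 4 of 42 were called, all down, at a list median of -0.0814, and LDHA (-0.21, q = 0.00143) and GART (-0.19, q = 0.00128) fell in the authors' deposited table. In the RPE1 knockout 20 rose and 7 fell of 44. Of these, 5 that rose lie on chromosome 12, where the median over 683 genes was 0.51, and the 39 others had 15 up and 7 down. UTP20, CDK4, NOC4L and PA2G4, with the highest log2 fold changes (0.72, 0.71, 0.70 and 0.60 in the authors' deposited table), are all on that chromosome.

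Of genes that MYC represses, CDKN1A, an inhibitor of cyclin-dependent kinases that p53 also raises, rose by 1.74 in clone 2, 1.08 in clone 1 and 0.41 in the RPE1 knockout, and fell by 0.14 (q = 0.00108) with doxycycline in TetOn clone 5, as listed in the authors' deposited tables. TGM2, a transglutaminase gene, rose by 0.65 in the RPE1 knockout, fell by 0.29 and 0.32 in TetOn clone 5 and clone 4, and fell by 2.38 and 0.56 in CHP-134 clone 2 and clone 1, as listed in the authors' deposited tables. The RPE1 knockout had 6 up and 1 down of 8 measured, or 5 and 2 with chromosome medians removed, clone 2 had 1 and 2 of 7, and clone 1 had 2 and 1 of 7. TetOn clone 5 had 0 up and 3 down of 8 measured. TetOn clone 4 had 0 up and 1 down of 4 measured, with 3 of the 9 genes set aside there as Outlier.

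ODC1 had 664 and 792 normalised counts in clone 2 and wild type CHP-134, and 747 and 792 in clone 1 and wild type. It fell by 0.25 (SE 0.0687, q = 0.000931) in clone 2, and had -0.085 (SE 0.0801, q = 0.513) in clone 1 and 0.0261 (SE 0.0294, q = 0.475) in the RPE1 knockout in the authors' deposited tables. The knockout exceeded clone 2 by 0.28 (interval 0.13 to 0.43, adjusted p = 0.000703), and clone 2 minus clone 1 was -0.17 (interval -0.37 to 0.039, adjusted p = 0.283). With doxycycline its log2 fold changes were -0.00178 and -0.0177 in TetOn clone 5 and clone 4, as listed in the authors' deposited tables, each with an interval within 0.1 of 0.

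Other polyamine genes moved in both directions. In clone 2, 6 rose and 4 fell of 18 measured. SMOX, spermine oxidase, rose by 0.50 (q = 2.82e-05) there and by 0.56 (q = 1.19e-16) in the RPE1 knockout in the authors' deposited tables. ATP13A3, a polyamine transporter of the cell membrane, fell by 0.69 (q = 2.51e-23) in clone 2 and by 0.35 (q = 1.65e-22) in the knockout in the authors' deposited tables. EIF5A2, a factor that is activated through spermidine, fell by 0.66 (q = 1.53e-06) in clone 2 in the authors' deposited table. AMD1, which makes the aminopropyl donor of the pathway, fell by 0.15 (q = 0.000181) in clone 1, where 1 rose and 2 fell of 18, in the authors' deposited table. The RPE1 knockout had 7 up and 5 down of 19, or 9 and 3 with chromosome medians removed.

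ALK had the largest difference between the CHP-134 clones among the members, in values set aside with the Status Outlier. Its level was 26.9 and 72.5 normalised counts in clone 2 and wild type, and 81.3 and 73.3 in clone 1 and wild type. The log2 fold changes were -1.43 (SE 0.131) and 0.15 (SE 0.149) in clone 2 and clone 1, as listed in the authors' deposited tables, both with the Status Outlier. A Status of Outlier was given to 5.45% and 4.99% of genes above the low limit in those tables. Clone 2 minus clone 1 was -1.58 (interval -1.97 to -1.19). By the normal test the adjusted p was 8.54e-14 when such genes were kept, where 20.4% of all genes differed. That interval and p take the SEs of genes set aside at face value.

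Among ALK's ligands and relatives, MDK, midkine, reported as a ligand of ALK, rose by 0.84 (q = 1.07e-20) in clone 2, 0.36 (q = 0.00133) in clone 1 and 0.64 (q = 1.65e-33) in the RPE1 knockout in the authors' deposited tables. LTK, the nearest relative of ALK, rose by 0.61 (q = 0.00174) in clone 2, and SHC1, an adaptor of such receptors, by 0.43 (q = 2.47e-12) in the authors' deposited table. NRAS, further down the same pathway, fell by 0.33 (q = 3.94e-08) in clone 2 and by 0.22 (q = 4.33e-05) in clone 1, as listed in the authors' deposited tables. Counts were 6 up and 3 down of 16 in clone 2, and 2 up and 1 down of 16 in clone 1, or 4 and 1 with chromosome medians removed. The RPE1 knockout had 6 up and 4 down of 14, or 3 and 7 with chromosome medians removed, and PTPN11 and FRS2, up by 0.44 and 0.39 in the authors' deposited table, are chromosome 12 genes.

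LIN28B fell in both CHP-134 clones. Its level was 82.4 and 126 normalised counts in clone 2 and wild type, and 108 and 126 in clone 1 and wild type. The log2 fold changes were -0.61 (SE 0.0681, q = 1.58e-17) in clone 2 and -0.22 (SE 0.0461, q = 3.36e-05) in clone 1, as listed in the authors' deposited tables. Clone 2 minus clone 1 was -0.38 (interval -0.55 to -0.22, adjusted p = 4.42e-05). Its paralog LIN28A stayed at or below a mean count of 1.14 in every table.

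Genes of the let-7 axis did not move as a block. Of 15 measured in clone 2, 3 rose and 5 fell. TRIM71, a target of let-7 whose 3′ UTR held 6 of the seed matches shown above, rose by 0.98 (q = 5.8e-29) in clone 2 in the authors' deposited table. ARID3A (2 matches) rose by 0.78 (q = 1.2e-11), and IGF1R (2 matches) fell by 0.47 (q = 2.29e-06) and DIS3L2, a nuclease that degrades let-7 precursors, by 0.25 (q = 0.00842) there in the authors' deposited table. IGF2BP1 (4 matches) was the 1 gene called of 15 in clone 1, at -0.16 (q = 0.000214) in the authors' deposited table. HMGA2 (4 matches) was listed at 0 in both CHP-134 tables and had a mean count of 11800 in the RPE1 knockout table, where it rose by 0.86 in the authors' deposited table and lies on chromosome 12. HMGA1 rose by 0.97 there in the authors' deposited table, and 5 rose and 3 fell of 16, or 3 and 3 of 14 without chromosome 12. IGF2BP3 (1 match), which binds mRNAs in tumours, fell by 0.18 (q = 4.7e-09) and 0.14 (q = 9.33e-07) with doxycycline in TetOn clone 5 and clone 4, and rose by 0.41 (q = 3.11e-33) in the RPE1 knockout, in the authors' deposited tables.

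SALL4 fell furthest of the members with a q. It had 1.35 and 5.60 normalised counts in clone 2 and wild type CHP-134, and 1.31 and 5.49 in clone 1 and wild type, which is 0.241 and 0.238 times the wild type. The log2 fold changes were -2.05 (SE 0.17, q = 2.07e-31) and -2.07 (SE 0.173, q = 1.82e-30) in clone 2 and clone 1, as listed in the authors' deposited tables, at mean counts of 107 and 98.6. Clone 2 minus clone 1 was 0.02, and its interval of -0.46 to 0.50 bounds how far the clones could differ. Both clones are set against the same wild type libraries, so the 2 falls are not independent observations. Of 11 SALL and pluripotency genes, 3 were measured in CHP-134, where SALL2 rose by 0.27 (q = 0.000297) in clone 2 in the authors' deposited table, or 1 rose and 1 fell with chromosome medians removed. In the RPE1 knockout SALL2 fell by 0.66 (q = 1.23e-29) and KLF4, at a mean count of 83.6, rose by 2.35 (q = 6.18e-36) in the authors' deposited table.

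ATRX had 100 and 113 normalised counts in knockout and wild type RPE1, and fell by 0.17 (SE 0.0495, q = 0.00126) in the authors' deposited table. It had -0.0538 (SE 0.0862, q = 0.635) in CHP-134 clone 2, -0.0755 (SE 0.0688, q = 0.496) in clone 1, and 0.0391 and -0.0404 in TetOn clone 5 and clone 4, as listed in the authors' deposited tables. Knockout minus clone 2 was -0.12 (interval -0.31 to 0.076, adjusted p = 0.336), and knockout minus clone 1 was -0.098 (interval -0.26 to 0.069, adjusted p = 0.4). Against clone 1, 0 of the 4 members measured in both tables differed by the normal test, 0 also at an unadjusted p under 0.05, where 34.1% of all genes did.

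Among partners of ATRX, DAXX, with which it deposits histone H3.3, fell by 0.16 (q = 6e-09) in the RPE1 knockout in the authors' deposited table. Of the telomere genes, TERT, the telomerase subunit that hTERT-RPE1 also carries as a transgene, rose there by 0.74 (q = 2.5e-15) in the authors' deposited table. There 7 rose and 1 fell of 17, or 4 and 1 with chromosome medians removed. In clone 2, 1 rose and 4 fell of 16, or 0 and 5 with chromosome medians removed, and H3F3B, an H3.3 gene, fell by 0.26 (q = 1.05e-07) and the H3.3 chaperone gene ASF1A by 0.30 (q = 0.000232) in the authors' deposited table. In clone 1, 1 rose and 1 fell of 17, TERF2IP (0.22, q = 2.43e-05) and CBX5 (-0.22, q = 6.14e-06) in the authors' deposited table.

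Further driver and predisposition genes of neuroblastoma changed in CHP-134 at 10 up and 6 down of 24 in clone 2, and 5 up and 2 down of 24 in clone 1. CCND1, cyclin D1, rose by 0.76 (q = 3.73e-22) and 0.69 (q = 1.81e-18) in clone 2 and clone 1, as listed in the authors' deposited tables. CDK6, its kinase partner, fell by 0.95 (q = 1.32e-39) in clone 2 in the authors' deposited table. CDKN2A, which encodes p16 and ARF, rose by 0.62 (q = 0.047) and 1.43 (q = 1.63e-08) in clone 2 and clone 1, and fell by 0.22 (q = 0.0267) with doxycycline in TetOn clone 5, as listed in the authors' deposited tables. In the RPE1 knockout, where 8 rose and 3 fell of 19, MDM2, the ubiquitin ligase of p53, rose by 0.95 in the authors' deposited table, on chromosome 12.

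**Figure D4:**
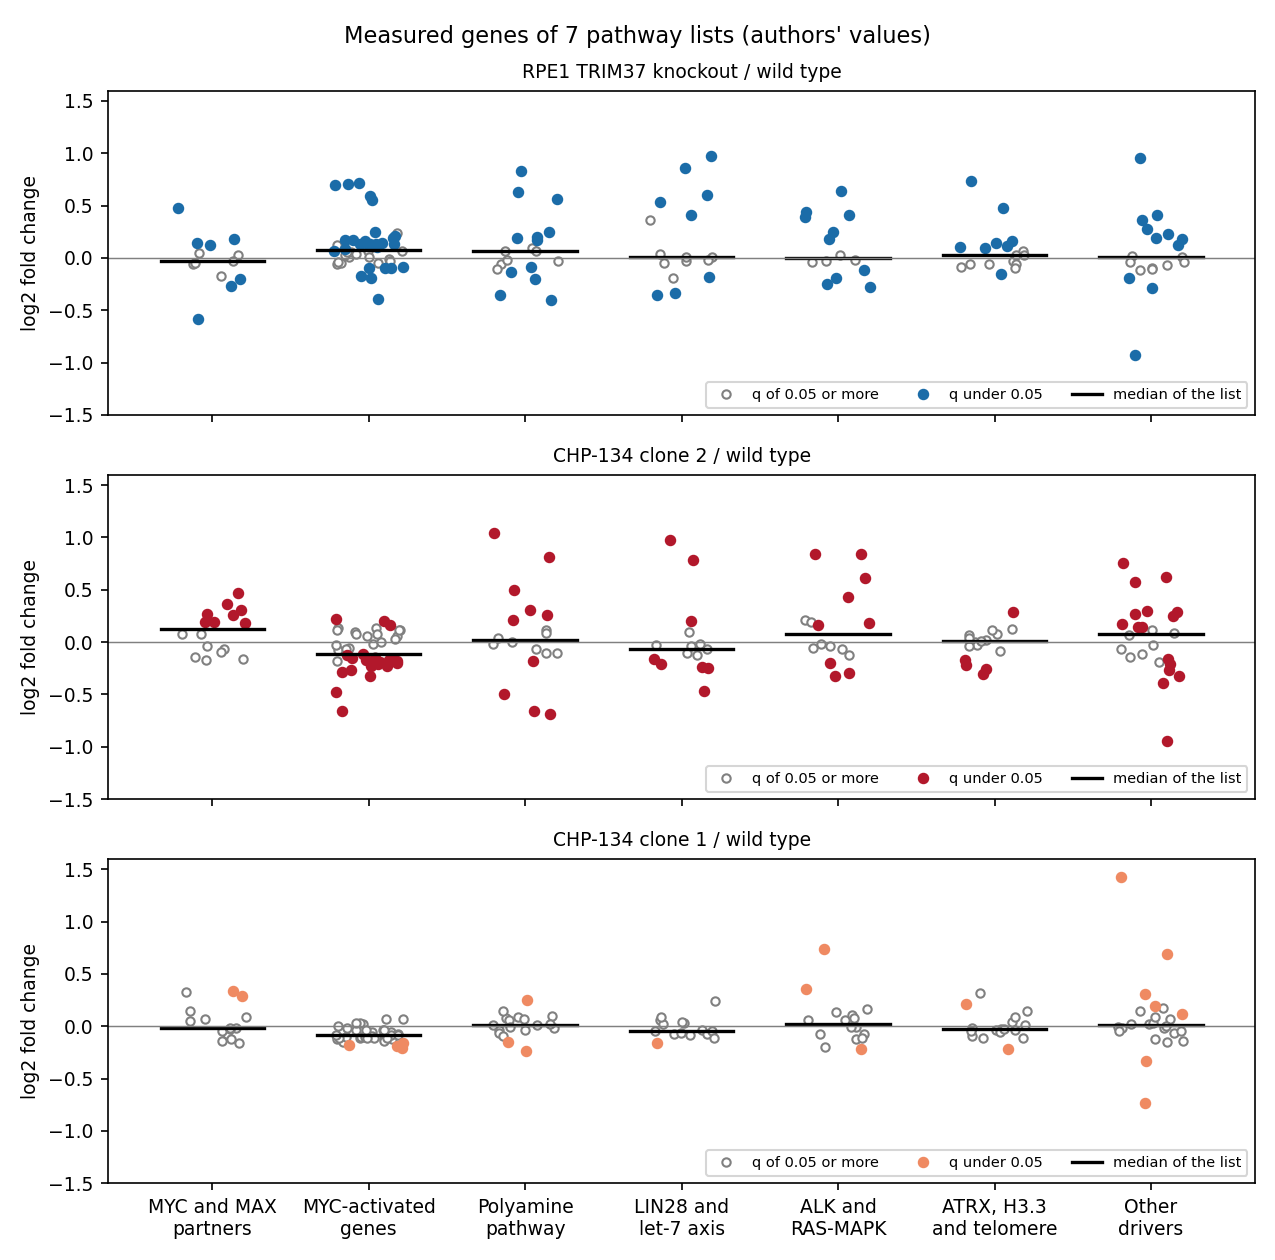
The authors' log2 fold changes of the measured genes of 7 pathway lists in the RPE1 knockout, CHP-134 clone 2 and CHP-134 clone 1; filled points have a q under 0.05 and black bars are list medians. The MYC-activated genes have a median of 0.077 in the knockout, -0.12 in clone 2 and -0.081 in clone 1.

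The genes whose log2 fold changes lay nearest to a member's over all 5 comparisons were sought among 9014 genes measured in every table, each with a mean count of 50 or more. For MAX they were CLN8, IFFO1 and IMP4, at distances of 0.034 to 0.0658, where the median gene lay at 0.451. For ODC1 they were MTIF2, SEP15 and USP14 (0.0324 to 0.0348, median 0.379), and for ATRX they were DYM, UBR1 and CLPX (0.0384 to 0.0508, median 0.349). MYC was nearest to LOC344595, NDUFC1 and C20orf96 (0.099 to 0.123, median 0.574). Its largest values there, from CHP-134 clone 2 and clone 1, had mean counts of 16.3 and 20.9 and SEs of 0.306 and 0.255. They were not called, so these neighbours may only match noise. MXD4, over the 3 RPE1 comparisons, was nearest to ZNF155, CBWD1 and RECQL5 (0.0395 to 0.0446, median 0.282). MYCN, ALK, LIN28B and SALL4 were measured in too few comparisons.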

How the data were processed

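RNA sequencing libraries were aligned with STAR and compared with DESeq2, per the submitters' processing notes. Their versions, the genome, its annotation and the rule and strand used in counting were not given in the sources used here. The authors deposited 1 table per comparison. Per the file headers, each holds a Status, a mean count (a signal averaged over both groups, of unstated scaling), a log2 fold change with its SE, and a q value. TRIM37, the targeted gene, gave the direction of each table. Library depth is unknown, and precision rests on the deposited SE (median 0.0551 to 0.0887 over measured genes). Below a mean count of 1 no log2 fold change exceeded 0.833 in size, so changes of low genes may be understated.

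The files hold no counts per library, so the deposited tests were used. Normalised counts, 95% intervals, differences between comparisons with 2-sided normal p-values and Benjamini-Hochberg adjustment over all genes measured in both tables, and recomputed adjusted p-values came from Python 3.11.15 with pandas 2.3.3, numpy 2.4.6 and scipy 1.17.1. Chromosomes came from RefSeq (GRCh38.p14) by symbol, for 22783 symbols, and exon lengths and 3′ UTRs from GENCODE v29. The 9 members and the pathway lists were chosen with earlier results of these data known. Named genes are the members, TRIM37, for each list and comparison up to 4 called genes with the largest change at a mean count of at least 50, and for each member the 3 nearest genes. Markers of the cell types, the neighbours of MYCN, LIN28A, HMGA2 in CHP-134 and list genes followed across comparisons beyond that rule were chosen after their values were seen. Alternatives were other thresholds, a minimum fold, a mean count minimum, genes set aside kept, a rescaled null, and chromosome medians removed.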

Additional observations from a re-analysis of the deposited data

Results flagged for a closer look

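A few results stood out because an effect differed between groups under the same contrast. The 2 CHP-134 clones differed in MYCN, by -0.34 on the log2 scale for clone 2 minus clone 1 (adjusted p = 0.00127), and in LIN28B, by -0.38 (adjusted p = 4.42e-05). The RPE1 knockout and CHP-134 clone 2 differed in MAX, by 0.19 (adjusted p = 0.0309), and in ODC1, by 0.28 (adjusted p = 0.000703). These 4 differences had adjusted p-values of 0.154 to 0.966 when each z value was divided by the central spread of all z values.

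A further 2 results lie in genes that the authors' deposited table sets aside with the Status Outlier and that enter no call. In CHP-134 clone 2, MXD4 had a log2 fold change of 0.81 and ALK of -1.43 in the authors' deposited table, with recomputed adjusted p-values of 5.29e-09 and 8.06e-26 when such genes were kept. In clone 1 the same genes, also set aside, had recomputed adjusted p-values of 0.124 and 0.626. Which library led to the Status cannot be seen without values per library.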

How the results depend on the processing

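No paired analysis was possible because the files hold no values per library, and for the same reason leaving out each replicate was not run. Of 52 alternative counts of members, 38 stayed within 1.5 times of the main count, 12 were lower and 2 higher. At a fold of at least 1.5, 0 members were called in the RPE1 knockout, 1 in clone 1 and 0 in TetOn clone 5. With z values divided by their central spread over genes (3.64 in the knockout, 3.08 in clone 2, 1.84 in clone 1, 1.11 and 1.10 in TetOn clone 5 and clone 4), 0 members were called in the RPE1 knockout, 1 in clone 2, 1 in clone 1 and 0 in TetOn clone 5, and 0 differed between the clones of CHP-134 or between the knockout and clone 2. SALL4 is the member still called in both CHP-134 clones. Keeping the genes set aside gave 5 members in clone 2 and 0 in TetOn clone 5, and 4 that differed between the CHP-134 clones, this last chosen after seeing the data. At an adjusted p under 0.01, 0 were called in TetOn clone 5, and 1 differed between the knockout and clone 2. Of 201 values of single members 183 kept direction and call, and MYC in TetOn clone 4 changed sign, to -0.0017, with chromosome medians removed. That centring also gave MAX a call in clone 1 (adjusted p = 0.0443). List counts moved by over 1.5 times in 119 of 490 alternatives. SALL4 and MYC in CHP-134 are limited by low mean counts.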

Other observations

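Noradrenergic markers were called in both CHP-134 mutant clones, which share their wild type libraries, and some of them differed between the clones. Of the noradrenergic markers of neuroblastoma, 4 rose and 4 fell of 9 measured in clone 2, and 7 rose and 0 fell of 10 in clone 1 by the authors' DESeq2 test. A further 5 and 4 of the 16 markers had the Status Outlier in clone 2 and clone 1. With genes set aside kept, 6 rose and 5 fell in clone 2, and 7 rose and 0 fell in clone 1. Once z values were divided by their central spread over genes, 2 rose and 1 fell in clone 2, and 2 rose and 0 fell in clone 1. No test of the list between the clones was run. PHOX2A, a homeobox factor of sympathetic neurons, had a log2 fold change of -0.86 (q = 0) in clone 2 and 0.44 (q = 7.28e-19) in clone 1, and GAP43, a growth cone protein gene, -0.85 (q = 2.88e-17) and 0.79 (q = 6.19e-21), per the authors' deposited tables. Clone 2 minus clone 1 was -1.29 for PHOX2A (adjusted p = 2.75e-80) and -1.64 for GAP43 (adjusted p = 2.53e-37). CHGA, the chromogranin A gene, rose in both, by 0.92 (q = 5.64e-28) in clone 2 and 0.43 (q = 1.94e-05) in clone 1, per the authors' deposited tables.

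Of the mesenchymal, fibroblast and Schwann markers, 3 rose and 4 fell of 10 measured in clone 2, and 3 rose and 3 fell of 10 in clone 1. CD44, a surface receptor, fell by 4.54 (q = 1.54e-43) in clone 2 and 2.58 (q = 1.06e-21) in clone 1, at mean counts of 70.4 and 71.3, per the authors' deposited tables. S100A6, a calcium-binding protein gene, fell by 5.42 (q = 0) in clone 2 and rose by 0.55 (q = 0.000173) in clone 1, per the authors' deposited tables. The part of these markers in the values of MYCN, ALK, LIN28B and SALL4 was not tested.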
